A study of Gallus gallus with 10 samples.

Results

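The epicardium is the cell layer that covers the heart. Its markers were read in whole embryonic chicken hearts through 6 genes, WT1, TBX18, TCF21, ALDH1A2, UPK1B and MSLN, and through all probe sets that the platform annotation assigns to them. That gave 9 probe sets of 38535, for 5 of the 6 genes. WT1, a zinc finger transcription factor gene of the epicardium, had no probe set under its name in the annotation used here and was not analysed here. All 5 measured genes had a probe set above the filter on low values, as did 6 of the 9 probe sets.

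The series holds 10 single-colour arrays, 5 hybridised with total RNA pooled from male hearts and 5 with total RNA pooled from female hearts, and within a sex the pools are lettered A to E. The labels record harvest as the only treatment. Embryonic age, strain and the number of hearts per pool are not stated in the labels used here. Nothing says that the pools came from separate clutches or cultures, so p-values measure only pool-to-pool spread, part of which may be technical.

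The epicardium forms when cells of the proepicardium, a cluster beside the inflow of the heart tube, spread over the myocardium. Some of its cells undergo an epithelial to mesenchymal transition, enter the heart wall and give rise to fibroblasts and to the smooth muscle of the coronary vessels. The layer also makes retinoic acid and other signals to which the underlying muscle responds. TBX18 and TCF21 encode transcription factors of this layer and of the cells that derive from it, ALDH1A2 encodes the enzyme that makes retinoic acid from retinal, and UPK1B and MSLN encode surface proteins, uroplakin 1b and mesothelin, of mesothelium. Mesothelium also lines the pericardium, so these names do not tell the epicardium from other mesothelial cells.

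The values are deposited linear intensities per probe set, already brought to one level per array, with array medians between 605 and 735. They were analysed as log2(intensity + 16), where 16 is a constant that damps noise at low intensity. Testing left out 96 control probe sets and, of the rest, the 40% with the lowest mean level, so that 23063 probe sets and 10284 named genes were tested. Where a gene had several probe sets, the one of highest mean stood for it. The values used here carry no detection call, levels of different probe sets are not on one scale, and precision is limited by having 5 arrays per sex. In whole hearts, fewer cells of a type and less RNA per cell cannot be told apart. All 8 cardiomyocyte markers lay above the filter, among them the troponin gene TNNT2 at 197378 in males and 208131 in females. Since 10284 of 13009 named genes also lay above it, passing the filter does not by itself show cardiac identity.

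None of the 5 genes passed the test between males and females (limma with Benjamini-Hochberg adjustment over all tested probe sets, adjusted p under 0.05), where 2.23% of all tested genes, 0.164% of tested autosomal genes and 1.76% of tested probe sets passed. All 5 genes lie on autosomes in the GRCg7b assembly. UPK1B had the largest difference of the 5, with a fitted fold of 2.81, female over male, from the means of log2(intensity + 16). The filter used the mean over all arrays, and UPK1B passed it through its higher female values. The fitted female over male fold was 1.17 for TCF21, and ALDH1A2, TBX18 and MSLN had intervals that included no difference. UPK1B and TCF21 were the 2 genes with an unadjusted p under 0.05, a level that 10% of all tested genes and 7.25% of tested autosomal genes reached. The difference was below 0, that is lower in males, for 4 of the 5 genes against 56.2% of all tested genes. Their median male minus female difference on the log2 scale was -0.06, where the median of all tested genes was -0.02.

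**Figure D1:**
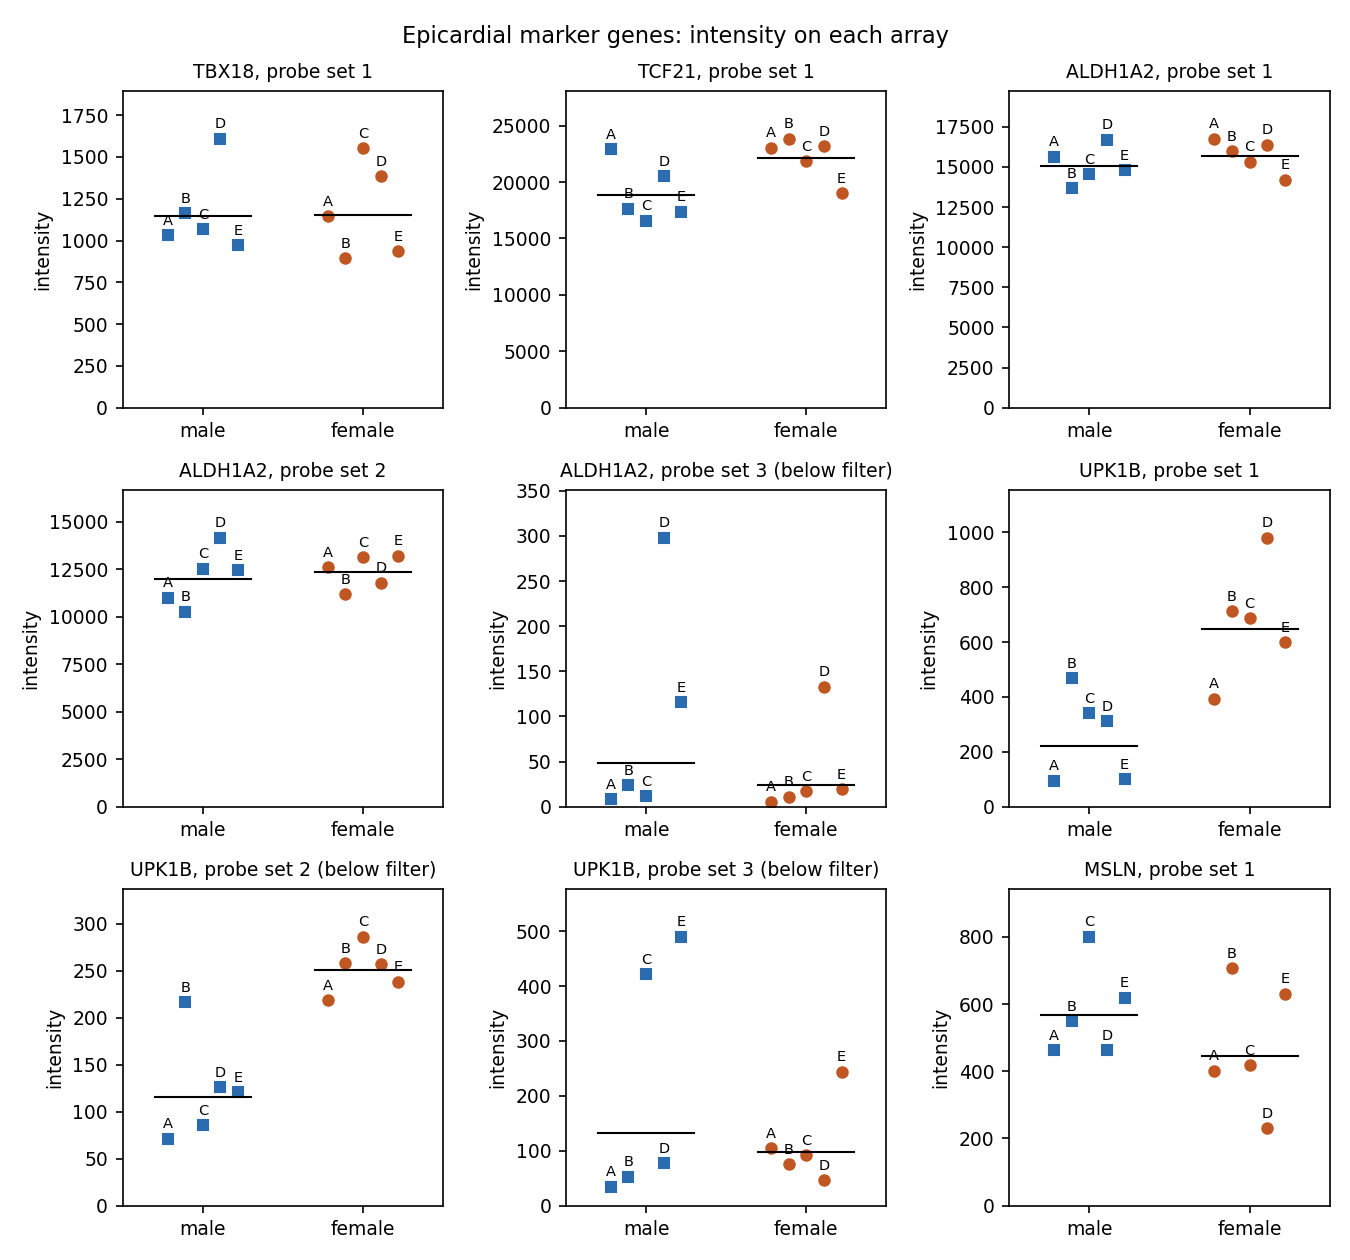
Intensity (linear, vertical axis from 0) of each of the 9 probe sets on the 5 male and 5 female arrays, with array letters; probe sets of a gene are numbered from the highest mean, and the horizontal line is the mean of log2(intensity + 16) turned back to intensity. For UPK1B, 4 female arrays lie above every male array in probe set 1 and all 5 do in probe set 2, while the sexes overlap for TBX18 and ALDH1A2.

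TBX18, on chromosome 3, encodes a T-box transcription factor of proepicardium and epicardium, and in the mouse also of the sinus venosus. Its male intensities were 1032, 1165, 1067, 1608 and 972 in pools A to E. Its female intensities were 1144, 893, 1551, 1384 and 937. Male D and females C and D were high, and the sexes overlapped throughout. Males averaged 1169 ± 255 and females 1182 ± 284 (SD over 5 arrays, as for all means that follow). The male minus female log2 difference was -0.01 ± 0.19 (SE, limma adjusted p = 0.995). Its 95% interval ran from 0.751 to 1.32 as a male over female fold, so these arrays do not exclude a difference inside those bounds. Within a sex, TBX18 had an SD of 0.31 on the log2 scale, where the median probe set in the same decile of mean level had 0.30.

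TCF21, also on chromosome 3, encodes a basic helix-loop-helix factor that in the mouse is needed for epicardial cells to become cardiac fibroblasts. Male pools A to E read 22917, 17648, 16592, 20516 and 17386. Female pools read 23060, 23832, 21860, 23207 and 19024. Of the females, 3 lay above every male, and male A and male D reached into the female range. The means were 19012 ± 2640 in males and 22197 ± 1912 in females. The male minus female log2 difference was -0.23 ± 0.09 (SE, n = 5 per sex, limma unadjusted p = 0.0207, adjusted p = 0.394), a female over male fold of 1.17 with a 95% interval from 1.03 to 1.34. TCF21 varied more between pools of one sex than most probe sets of its level did. Its within-sex SD of 0.17 was larger than that of 89.5% of the probe sets in its decile of mean level, whose median was 0.10.

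ALDH1A2, on chromosome 10, encodes retinaldehyde dehydrogenase 2, the main source of retinoic acid in the early embryo. Its brightest probe set read 15649, 13673, 14567, 16690 and 14784 in males A to E. In females it read 16752, 15994, 15338, 16388 and 14206. These 10 values spanned only 1.23-fold from lowest to highest, and the sexes overlapped. The male minus female log2 difference was -0.06 ± 0.07 (limma adjusted p = 0.843), with a 95% interval from 0.868 to 1.06 as a male over female fold. The second probe set, with means of 12082 ± 1505 in males and 12389 ± 883 in females, differed by -0.04 ± 0.08 (limma adjusted p = 0.932). The intervals of both bright probe sets included 0, and across the 10 arrays they had a Pearson r of 0.31. The third probe set annotated to ALDH1A2 lay below the filter and had a log2 difference of 0.69 ± 0.71 in a fit without the filter (limma adjusted p = 0.893). It read 298 in male D, 116 in male E and 133 in female D, and between 5.55 and 23.9 on every other array.

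UPK1B, on chromosome 1, encodes a tetraspanin first described in the urothelium of mammals and also made by mesothelium. Its brightest probe set read 94.6, 468, 342, 312 and 101 in males A to E. In females it read 394, 713, 688, 980 and 600. Females B to E lay above every male, and female A lay between males C and B. Males A and E were the dimmest of all 10 arrays. The means were 263 ± 162 in males and 675 ± 212 in females. The male minus female log2 difference was -1.49 ± 0.44 (SE, n = 5 per sex, limma unadjusted p = 0.00410, adjusted p = 0.164), a female over male fold of 2.81 with a 95% interval from 1.47 to 5.39. The difference had an unadjusted p under 0.05 and did not pass after adjustment over all tested probe sets. In the fit without the filter, the limma unadjusted p was 0.00493 and the adjusted p 0.253. The within-sex SD of 0.77 was larger than that of 75.0% of probe sets at its level.

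The other probe sets of UPK1B lay below the filter and did not behave alike. The second read 71.2, 216, 85.5, 126 and 121 in males A to E, and 219, 258, 286, 257 and 238 in females. All 5 females lay above all 5 males there. No overlap between the sexes, in either direction, occurred in 0.982% of probe sets below the filter and in 3.91% of all tested genes. Both shares include genes on the sex chromosomes. In a fit without the filter its male minus female log2 difference was -1.01 ± 0.44 (limma unadjusted p = 0.0338, adjusted p = 0.597). An unadjusted p under 0.05 was found for 5.74% of the probe sets below the filter, and 1.05% of all probe sets passed the adjusted threshold in that fit. The third probe set went the other way, with means of 215 ± 221 in males and 113 ± 76.7 in females and a log2 difference of 0.38 ± 0.69 (limma adjusted p = 0.946). Males C and E and female E carried its high values, at 422, 489 and 244. Across the 10 arrays the first and second UPK1B probe sets had a Pearson r of 0.83, or 0.59 after each sex's mean was subtracted, while the third had an r of -0.25 with the first and -0.24 with the second. These r values describe probe sets that share their arrays and their annotated gene. With the mean of its 3 probe sets, the UPK1B difference was -0.71 ± 0.31 (limma adjusted p = 0.485).

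**Figure D2:**
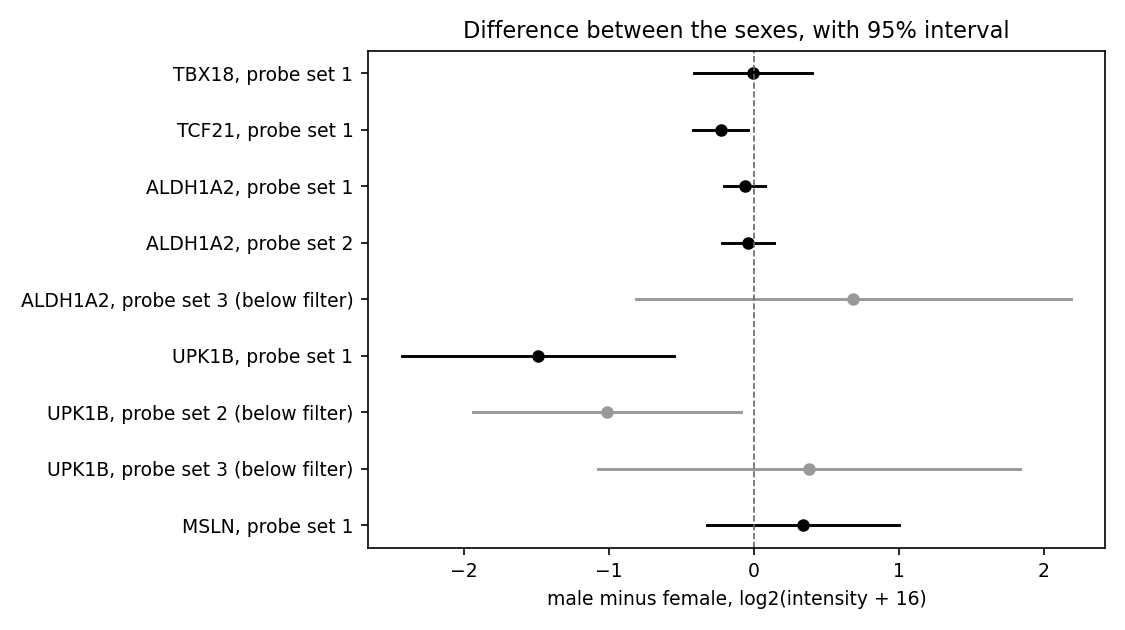
Male minus female difference in log2(intensity + 16) for the 9 probe sets (points) with 95% intervals from limma (lines); grey marks probe sets below the filter, taken from the fit without it. The intervals of the first and second UPK1B probe sets and of TCF21 lie below 0, and no probe set passed the adjusted threshold.

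MSLN, on chromosome 14, encodes the precursor of mesothelin, a surface glycoprotein of mesothelial cells. Males A to E read 464, 550, 800, 463 and 620, and females 402, 708, 419, 231 and 631. Male C was highest and female D lowest. Females A, C and D lay below every male, while females B and E lay between males E and C. The means were 579 ± 140 in males and 478 ± 192 in females. The log2 difference of 0.34 ± 0.31 had a 95% interval from 0.501 to 1.25 as a female over male fold (limma adjusted p = 0.822). MSLN was the one gene of the 5 that averaged higher in males, and its interval included no difference. Without female D its log2 difference was 0.11, and without male C it was 0.21.

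The 5 genes did not rise and fall together as one group. Of the 10 pairs, 6 had a positive and 4 a negative Pearson r over the 10 arrays, with a median of 0.14. No pair passed after Benjamini-Hochberg adjustment over the 10 pairs, for Pearson's r or for Spearman's rho, and 2 had an unadjusted p under 0.05 for r. All 4 negative values were those of MSLN with the other genes. After subtraction of each sex's mean, 4 pairs had a positive r and the median was -0.14. The separate sexes, with 5 arrays each, hold too few arrays for a correlation of their own.

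The closest pair was TCF21 with ALDH1A2, at a Pearson r of 0.78 (two-sided permutation test of 100000 resamples, p = 0.0119, adjusted p = 0.119) and a Spearman rho of 0.71 (permutation p = 0.0261, adjusted p = 0.151). Both genes were high in females A, B and D and low in males B, C and E and in female E. Without males C and E, the arrays farthest from the median of TCF21, r was 0.80, and with the sex means subtracted it was 0.77 (exact permutation within sexes, p = 0.0199, adjusted p = 0.199). Among all tested genes, 2.15% had an r with TCF21 that was larger in size, and 0.943% had a larger one with ALDH1A2. The r was 0.81 after quantile normalization (permutation adjusted p = 0.0788). With the mean of each gene's probe sets, which includes the second bright and the dim probe set of ALDH1A2, it was -0.06 (permutation adjusted p = 0.958). The value of 0.78 is that of the brightest ALDH1A2 probe set alone. Over the 10 arrays the dim probe set had a log2 range of 3.86, against 0.29 and 0.46 for the bright ones. The mean therefore cannot show how the second bright probe set varied with TCF21. The second bright probe set had an r of only 0.31 with the first. In female B, where TCF21 was highest, it read 11176, the lowest of the females. Its own r with TCF21 is not given here.

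The other pair with an unadjusted p under 0.05 was TBX18 with MSLN, at an r of -0.63 (permutation p = 0.0466, adjusted p = 0.227) and a rho of -0.70 (permutation p = 0.0302, adjusted p = 0.151). Without male D and female C it was -0.81. The lowest MSLN value, in female D, went with a high TBX18 value. UPK1B had r between -0.29 and 0.29 with the other genes on all 10 arrays, and these values depended on single arrays. Its r with TCF21 was 0.29 (permutation p = 0.408), 0.61 without male A (exact permutation p = 0.0650, adjusted p = 0.217) and 0.07 without male E. With the sex means subtracted it was -0.30 (exact permutation within sexes, p = 0.491). Its r with TBX18 ran from 0.15 without male E to 0.47 without female B. Its r with MSLN was 0.08 without female D, and that with ALDH1A2 was -0.06 without female D.

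**Figure D3:**
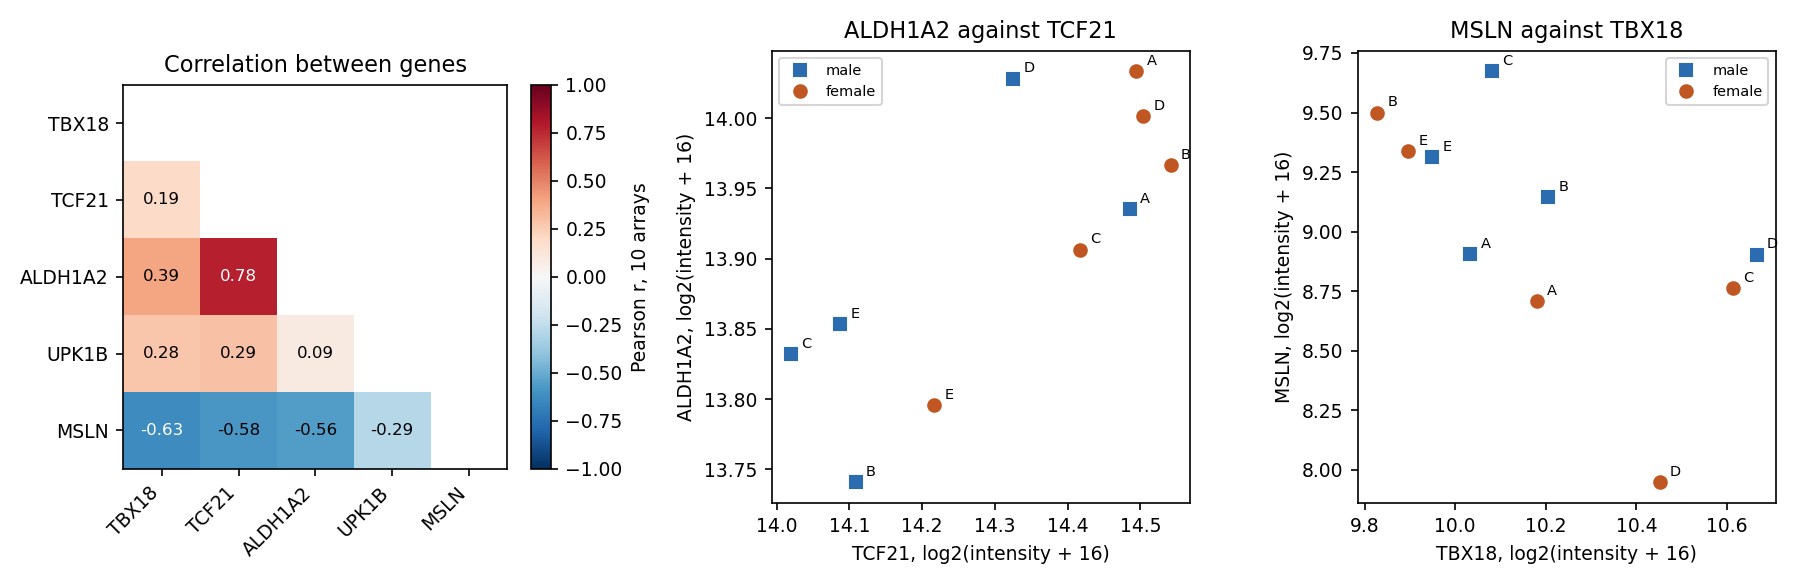
Left, Pearson r over 10 arrays for each pair of genes, on a colour scale from -1 to 1; middle and right, log2(intensity + 16) of ALDH1A2 against TCF21 and of MSLN against TBX18, a point per array with its letter. TCF21 and the brightest ALDH1A2 probe set rise together at 0.78, and MSLN has a negative r with each other gene.

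TBX18 and MSLN also moved with the median intensity of the array, a property of the whole array. For TBX18 the Pearson r with the log2 array median was 0.88 (permutation p = 0.00127, adjusted over 5 genes 0.00635) and the Spearman rho 0.92 (permutation adjusted p = 0.00300). It was 0.93 without females D and C, whose medians lay farthest out. For MSLN r was -0.78 (permutation adjusted p = 0.0146) and rho -0.72 (adjusted p = 0.0564), and r without those 2 arrays was -0.43, so that the MSLN relation rested on them. After quantile normalization r was 0.85 for TBX18 and -0.84 for MSLN. Only 0.272% of tested genes had a larger r in size with the array median than TBX18, and 1.96% a larger one than MSLN. The part of the array median in the relation between TBX18 and MSLN was not tested. TCF21, ALDH1A2 and UPK1B had r of 0.25, 0.33 and 0.57 with the array median (permutation adjusted p = 0.489, 0.433 and 0.137).

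**Figure D4:**
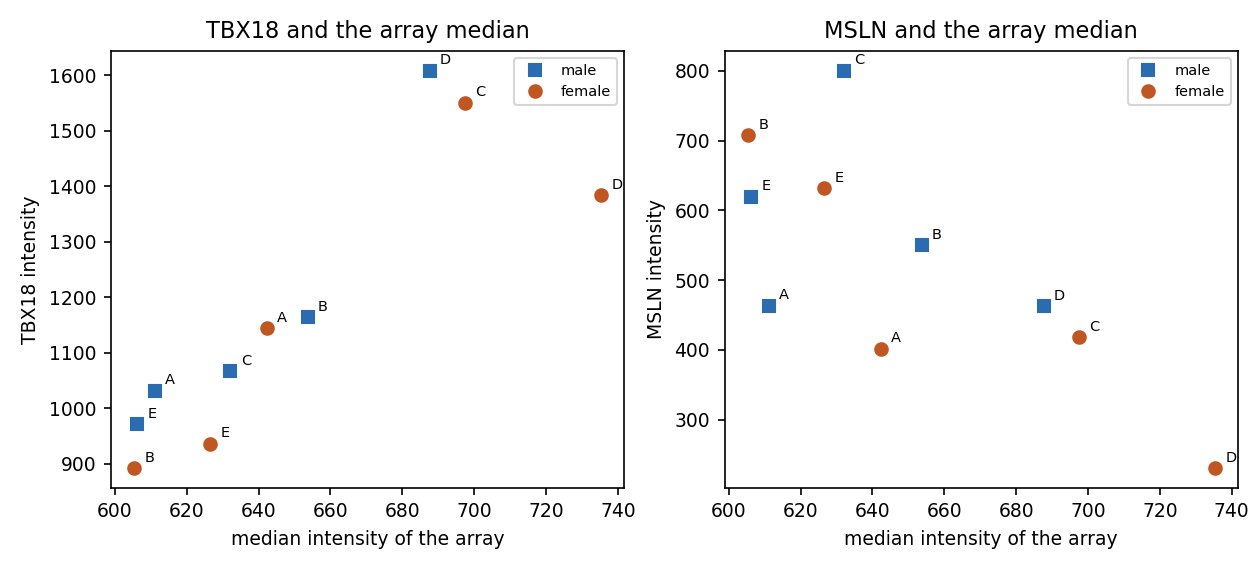
Intensity of TBX18 (left) and MSLN (right) against the median intensity of all probe sets on the same array, both linear, a point per array with its letter. TBX18 is highest on male D and females C and D, the arrays with the highest medians, and MSLN is lowest on female D.

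The tested genes most like each of the 5 were ranked by Pearson r over the 10 arrays with the sex means subtracted, as a description without a test. With 10283 genes compared over few arrays, high values are to be read beside their number: r above 0.9 was found for 8 genes with TBX18, 18 with TCF21, 6 with ALDH1A2, 1 with UPK1B and 6 with MSLN. Those closest to TBX18 were SLC26A9, ARMH4, the homeobox gene CDX2, the cone arrestin gene ARR3 and the receptor gene TREM2, with r from 0.93 to 0.95. Those closest to TCF21 were EDF1, KBTBD13, the ATP synthase gene ATP5I, the peroxiredoxin gene PRDX1 and ATP2A2, which encodes the cardiac calcium pump, also from 0.93 to 0.94. ALDH1A2 had the kinase gene BRAF, MAL, TADA3, the synaptopodin gene SYNPO and again KBTBD13, from 0.90 to 0.94. UPK1B had RNF19B, NPRL3, LRR1, ADGRA3 and the amino acid transporter gene SLC7A3, from 0.87 to 0.92. MSLN had TASP1, BLOC1S2, the exchange factor gene SOS1, GHITM and FSD1L, from 0.91 to 0.95. These 24 genes included 0 of the list genes described below. Only 86 of the 10284 tested genes were in those lists, so a count of 0 among 24 says little. The part of the array median in the genes closest to TBX18 and MSLN was not tested.

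TCF21 followed 2 lists of cell type markers between pools in the deposited values, those of cardiomyocytes and of erythroid cells. With sex means subtracted, its r with the 8 cardiomyocyte markers had a median of 0.82 and was positive for all 8, highest for the troponin gene TNNC1 at 0.93 and lowest for the calcium release channel gene RYR2 at 0.22, where the median r of TCF21 with all tested genes was 0.04. ALDH1A2, read through its brightest probe set alone, had a median of 0.51 with the same markers, positive for all 8. The median was 0.21 for TBX18, -0.29 for UPK1B and -0.47 for MSLN. After quantile normalization, a setting chosen after seeing the data, these medians were -0.11 for TCF21, 0.03 for ALDH1A2, -0.03 for TBX18, -0.08 for UPK1B and 0.09 for MSLN. The relation to cardiomyocyte markers was thus present under one scaling and not under the other. The r of TCF21 with ALDH1A2, without subtraction of sex means, was 0.78 under one and 0.81 under the other. With sex means subtracted, as for the markers, it was 0.77 in the deposited values, and the value after quantile normalization is not given here. With the 4 erythroid markers the median r of TCF21 was 0.71 in the deposited values and 0.66 after quantile normalization, positive for all 4 under both. It was highest for the globin gene HBAD at 0.87 and lowest for HBE at 0.14 in the deposited values. The erythroid medians before and after quantile normalization were 0.52 and 0.34 for ALDH1A2, 0.16 and 0.10 for TBX18, -0.26 and -0.39 for UPK1B, and -0.49 and -0.41 for MSLN. The summed intensity of the erythroid list ran from 378962 to 552053 in males and from 426109 to 545657 in females, and the part of blood content in the TCF21 values was not tested. With the fibroblast markers the median r of TCF21 was -0.02 before and -0.37 after quantile normalization, and that of ALDH1A2 was -0.18 and -0.34. For TCF21 the 2 medians were 0.01 and 0.07 with smooth muscle markers and 0.08 and -0.02 with endothelial markers. They were -0.18 and -0.22 with leukocyte markers. With the other epicardial and mesothelial genes the median r was 0.31 for UPK1B, 0.08 for TBX18, -0.05 for ALDH1A2, -0.11 for MSLN and -0.14 for TCF21.

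Of 18 other genes of epicardium and mesothelium, 14 had a probe set, 12 were tested and none was called. Their median male minus female log2 difference was 0.11, and 2 of the 12 lay below 0, against 56.2% of all tested genes. The largest differences were those of WNT2B, a Wnt ligand, at 0.53 ± 0.62, of the basonuclin gene BNC2, on Z, at 0.45 ± 0.25, of the cell adhesion gene ALCAM at 0.27 ± 0.13 and of SCX, a factor of tendon precursors and of part of the proepicardium, at -0.23 ± 0.23 (limma adjusted p from 0.572 to 0.860). Among individual genes, BNC2 had an r of 0.83 with TBX18 and of -0.94 with MSLN, both with the sex means subtracted. ALCAM had -0.75 with TCF21, -0.81 with ALDH1A2 and 0.77 with MSLN. LRRN4, a mesothelial surface protein gene, had 0.70 with UPK1B. Each of these values was the highest or lowest of the 12 tested genes. At the other end, ITGA4 had -0.47 with TBX18 and -0.33 with UPK1B, LRRN4 had 0.35 with TCF21 and BNC2 had 0.35 with ALDH1A2. Of the 12, r was above 0 for 8 with TBX18, 8 with UPK1B, 5 with ALDH1A2, 4 with MSLN and 3 with TCF21. TBX18 and MSLN themselves had r of 0.88 and -0.78 with the log2 array median, without subtraction of sex means. The part of the array median in their r with BNC2 and ALCAM was not tested. ALDH1A2 was read through its brightest probe set alone.

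The rest of the retinoic acid pathway, into which ALDH1A2 feeds, showed no called gene among 8 tested of 17. Their median difference was 0.02, with 5 above and 3 below 0. The degrading enzyme genes CYP26A1 and CYP26B1 were at 0.28 ± 0.24 and 0.21 ± 0.25, the receptor gene RXRA at -0.26 ± 0.19 and STRA6, the cellular uptake receptor of retinol, at -0.18 ± 0.27 (limma adjusted p from 0.754 to 0.896). RDH10, which makes the retinal that ALDH1A2 uses, was at 0.03 ± 0.06. ALDH1A3, a second retinaldehyde dehydrogenase gene, was at 0.11 ± 0.08 and had an r of -0.77 with ALDH1A2 over the arrays, with the sex means subtracted. That was the lowest r with ALDH1A2 among the 8 tested genes of the pathway. Their median was -0.03, 4 of the 8 lay above 0, and the highest was RXRA at 0.31. These values hold for the brightest ALDH1A2 probe set alone. With the sex means subtracted, that probe set had an r of only 0.27 with the second bright probe set of ALDH1A2.

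Genes of the epithelial to mesenchymal transition were all 13 tested, and none was called. Their median was 0.00, with 7 above and 6 below 0. The cadherin gene CDH1, of epithelia, was at 0.30 ± 0.43, the transcription factor genes TWIST1 and ZEB1 at -0.29 ± 0.24 and 0.11 ± 0.06, and TGFB2, a ligand of the transition, at -0.11 ± 0.08. Of 17 genes that signal between epicardium and myocardium, 11 were tested with a median of -0.02, and none was called. VCAM1, the myocardial partner of the epicardial integrin ITGA4, was at 0.30 ± 0.11 (limma unadjusted p = 0.0130, adjusted p = 0.321), FGF10, on Z, at 0.23 ± 0.33, PDGFRA at 0.16 ± 0.13 and PDGFB at -0.16 ± 0.07. ITGA4 itself was at 0.05 ± 0.11.

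Markers of the cell types that derive from the epicardium, or that a whole heart could hold beside it, gave the setting of these values. Of 8 tested fibroblast markers none was called, with a median of 0.05. The proteoglycan gene LUM came closest to a call, at 31576 ± 4242 in males and 24997 ± 1158 in females, a difference of 0.33 ± 0.08 (limma adjusted p = 0.0510). Its arrays did not overlap between the sexes, as was so, in either direction, for 3.91% of all tested genes. That share includes genes on the sex chromosomes, while LUM lies on an autosome, and the autosomal share is not given here. THY1 was at 0.13 ± 0.16, DDR2 at -0.06 ± 0.14 and the collagen gene COL1A2 at 0.06 ± 0.07. Of 3 tested smooth muscle markers, MYH11 was at 0.51 ± 0.27, RGS5 at -0.10 ± 0.12 and TAGLN at 0.09 ± 0.12. ACTA2, a smooth muscle marker below the filter, read 137 ± 102 in males and 305 ± 241 in females. In the fit without the filter it was at -0.90 ± 0.70 (limma adjusted p = 0.842). Cardiomyocyte markers had a median of -0.02 over 8 genes and differences from -0.08 to 0.02, with TNNC1 and TNNT2 at -0.08, MYBPC3 at -0.06 and MYL2 at -0.02. Endothelial markers had a median of -0.08 over 8, led by TIE1 at -0.22 ± 0.10, TEK, on Z, at 0.17 ± 0.08, VWF at -0.15 ± 0.08 and ERG at -0.13 ± 0.10. Erythroid markers had a median of -0.10 over 4, with SLC4A1 at -0.20, HBAD and HBE at -0.10 and HBA1 at -0.05. Leukocyte markers had a median of 0.04 over 5, with PTPRC at -0.42 ± 0.37, SPI1 at -0.30 ± 0.25, CSF1R at 0.08 and CD74 at 0.07. None of these passed the test.

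Tissues beside the heart could also hold mesothelium. Of 7 liver markers 4 were tested, with ALB at 0.67 ± 0.47, APOA1 at -0.22 ± 0.12, TF at -0.09 ± 0.07 and TTR at -0.09 ± 0.31, and the summed intensity of the list ran from 20161 to 24603 in males and from 19585 to 25030 in females. None of 3 lung and foregut markers was above the filter, and their sum ran from 398 to 673 in males and from 434 to 763 in females. Of 7 kidney and gonad markers, 4 had a probe set and 2 were tested, FOXL2 at 0.17 ± 0.47 and NR5A1 at 0.00 ± 0.21, with sums from 1495 to 2300 and from 1611 to 2173. The sums of these 3 lists overlapped between the sexes, but they add probe sets that are not on one scale, and APOA1 and TF made up most of the liver sum. Below the filter, 2 single markers of these lists had an unadjusted p under 0.05 in the fit without it, both higher in males. NKX2-1, a transcription factor gene of lung and thyroid, read 108 ± 86.2 in males and 18.2 ± 5.95 in females, with a log2 difference of 1.47 ± 0.55 (limma unadjusted p = 0.0167, adjusted p = 0.469). FGA, a fibrinogen chain gene of liver, read 342 ± 120 in males and 161 ± 143 in females, with a log2 difference of 1.33 ± 0.57 (limma unadjusted p = 0.0323, adjusted p = 0.589). The arrays of the sexes overlapped for both. The other markers of these lists below the filter went both ways in that fit. SHH was at -1.05 ± 0.66, FGB at -0.22 ± 0.57 and LHX9 at -0.08 ± 0.41. FGG was at 0.55 ± 0.64, PAX2 at 0.42 ± 0.39 and FOXA2 at 0.01 ± 0.39. No listed marker with a probe set was at 0 on any array, and without detection calls such levels cannot be told from background. The part of neighbouring tissue in the UPK1B values was not tested.

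RNA quality, read as the log2 ratio of 3′ to 5′ control probe sets, lay between 0.63 and 0.81 in males and 0.55 and 0.81 in females for actin, and between -0.24 and -0.09 and between -0.24 and -0.12 for GAPDH. Over the 10 arrays UPK1B had an r of -0.42 with the actin ratio (rho -0.24) and of -0.45 with the GAPDH ratio (rho -0.44). Of 10 relations, those of the 5 genes with both ratios, none had an unadjusted permutation p under 0.05, and the adjusted p for both UPK1B values was 0.559 for r and 0.708 for rho. Without the 2 arrays farthest out, females E and A for actin and males A and C for GAPDH, r was -0.51 and -0.18. With the sex means subtracted it was -0.49 and -0.21 (exact permutation within sexes, adjusted p = 0.529 and 0.926).

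**Figure D5:**
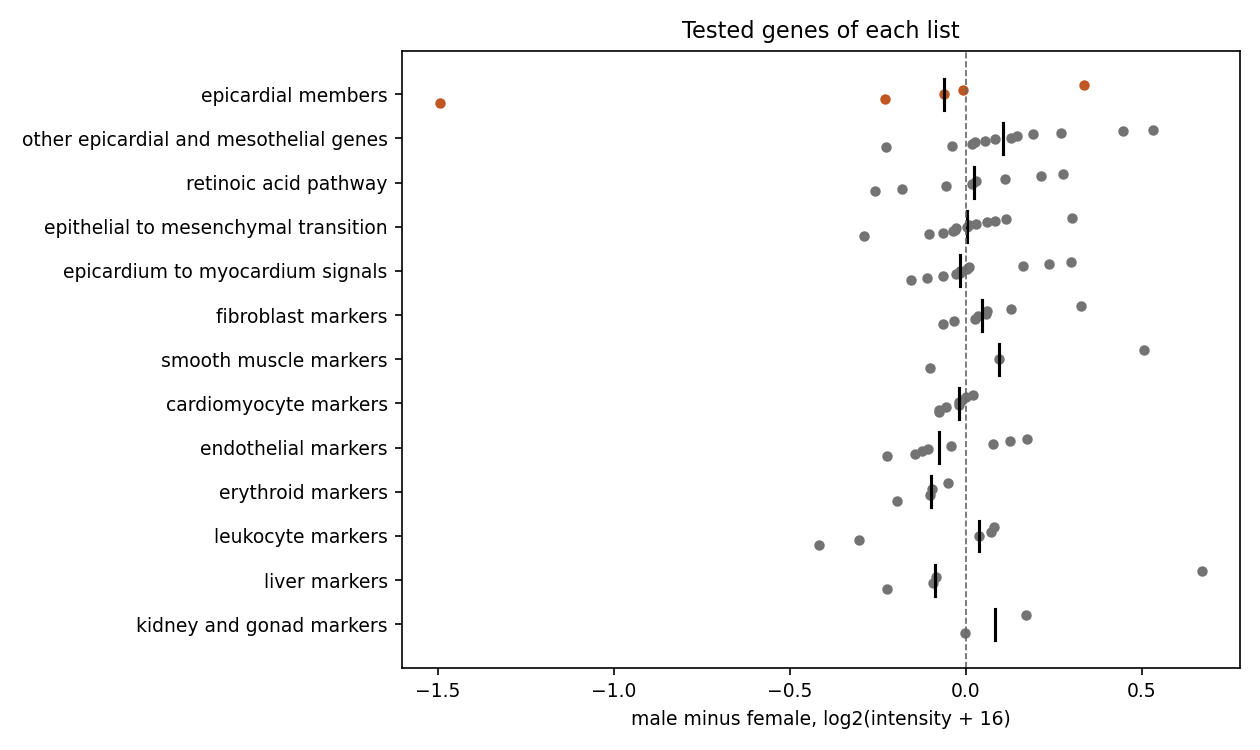
Male minus female difference in log2(intensity + 16) of the tested genes of each list (points), with the list median (bar); the lung and foregut list had no tested gene. UPK1B, at -1.49, lies apart from all other plotted points, which run from -0.42 to 0.67. List genes below the filter are not plotted, and in the fit without it CRABP1 was at -1.84, NKX2-1 at 1.47 and IGF2 at 1.44.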

How the data were processed

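Intensity values, 1 per probe set and array, were used as the authors deposited them; which software summarised and scaled them is not stated. Trimmed means (2% off each tail) were 2500.5 to 2500.6 on all arrays, and this common scaling was kept. Probe sets were named through the platform annotation, which can be old: 1 symbol was listed for 27178, several for 177 (used without a name) and none for 11180. Symbols and chromosomes came from the RefSeq table of GRCg7b by gene ID (26863) or unique symbol (308), and 7 were not matched. The files name no genome build, so no coordinates are given.

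Values were taken as log2(intensity + 16) and males were compared with females by limma 3.58.1 (R 4.3.3; lmFit, eBayes with a variance trend), with Benjamini-Hochberg adjustment over 23063 probe sets at 0.05. The procedure was tested on simulated data. Correlations used permutation tests of 100000 resamples (numpy 2.4.6), or exact ones within sexes. Named from each list are up to 4 tested genes with the largest differences, and, for each of the 5 genes, the 5 most like it. The members and all gene lists were chosen with earlier results of these data known. NKX2-1, FGA, ACTA2, RDH10, ALDH1A3, ITGA4, LRRN4, RYR2, and single correlations of list genes were singled out after their values were seen.

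Same-letter male and female arrays had deviations that correlated at 0.18, 0.06, 0.00, 0.10 and 0.21 for A to E. For males A, B, D and E the female array of the same letter gave the highest correlation. The labels state no pairing, and the main fit left the letters out, which these values do not settle. With the letter as a replicate block the limma adjusted p was 0.0698 for UPK1B and 0.212 for TCF21. Alternatives covered the letter as a replicate block, quantile normalization, pseudocounts of 1 and 64, no filter and a filter at 60%, averaging all probe sets of a gene, and each array left out. Correlations with the array median and with cell type markers after quantile normalization, and correlations with the 3′ to 5′ ratios, were added after seeing the data.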

Additional observations from a re-analysis of the deposited data

Results flagged for a closer look

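The third probe set annotated to ALDH1A2, below the filter, had a lone high value in female D, at 133 against 5.55 to 19.4 in the other 4 female arrays; the gap made up 0.743 of the range of the group on the log2 scale, above the critical value of 0.71 for 5 samples. It was the 1 lone value in 18 groups of 5 arrays examined, where chance gives about 5% of groups. The bright ALDH1A2 probe sets read 16388 and 11801 in the same array, inside the range of the other females.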

How the results depend on the processing

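No alternative gave a called gene among the 5 (0 in each of 17 alternatives), and the count of called probe sets, 407, stayed between 336 and 414 (336 to 398 with 1 array left out). For UPK1B the log2 difference ran from -1.75 to -0.71 and the adjusted p from 0.0698, with the letter as a replicate block, to 0.485, with the mean of its probe sets; with 1 array left out it ran from -1.75 to -1.22. TCF21 ran from -0.30, without male A (adjusted p = 0.102), to -0.18. TBX18, near 0, changed sign without male A, C or E or without female C or D, within a range of -0.13 to 0.10 with 1 array left out. ALDH1A2 was at 0.19 with the mean of its probe sets, which gives its dim probe set equal weight (adjusted p = 0.879), and ran from -0.10 to -0.03 with 1 array left out. MSLN ran from 0.11, without female D, to 0.50, without female B. Among list genes, LUM passed with the replicate block, with the pseudocount of 64, with the 60% filter and without male A or male C, giving 1 call each time (0 to 1 with 1 array left out); the cause was not tested. Among the pairs, TCF21 with MSLN passed without female B, at an r of -0.83 (exact permutation adjusted p = 0.0157), giving 1 pair, and 0 pairs passed in each other alternative (0 to 1 with 1 array left out). With the letter means subtracted (replicate block), 0 pairs could pass, since 32 arrangements allow no p under 0.0625. The letters pair the arrays only as a hint: 4 of the 5 male arrays correlated best with the female array of their own letter. UPK1B and MSLN could not be tested with the 60% filter, which removed them. Dim probe sets limit the UPK1B and MSLN values, since no signal over background is known.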

Other observations

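Of the list genes, 21 lay below the filter and so outside the test. In the fit without a filter, 0 of them passed the adjusted threshold and 4 had an unadjusted p under 0.05, where 5.74% of all probe sets below the filter did. These 4 were CRABP1, IGF2, and NKX2-1 and FGA, whose values stand beside the neighbouring tissues above. CRABP1, IGF2 and BNC1 were singled out after their values were seen. CRABP1, which encodes a cellular retinoic acid-binding protein, read 122 ± 99.5 in males against 390 ± 61.9 in females (SD over 5 arrays), and all 5 females lay above all 5 males. In the fit without a filter its male minus female log2 difference was -1.84 ± 0.52 (limma unadjusted p = 0.00278, adjusted p = 0.180). IGF2, a growth factor gene of the epicardium, read 383 ± 152 in males and 143 ± 79.4 in females, again without overlap, at a log2 difference of 1.44 ± 0.50 (limma unadjusted p = 0.0106, adjusted p = 0.387). A lack of overlap, in either direction, was found for 0.982% of all probe sets below the filter, those of the sex chromosomes included. BNC1, a basonuclin gene of mesothelium, read 333 ± 81.1 in males and 269 ± 48.4 in females, with a log2 difference of 0.28 ± 0.36 (limma adjusted p = 0.920).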
